A study of Homo sapiens with 6 samples.

Results

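The introns described here are the retained intron events whose intron is 151 to 500 nt long, a middle length class of the introns that cells can leave in a finished transcript. They were chosen by length, the distance between the 2 flanking exons, and by a mean of at least 10 junction reads over the 6 libraries, with no use of the difference between groups. Of 3287 retained intron events in the series, 1256 had this length, 979 of these passed the read minimum and 277 did not. The 979 introns lie in 708 genes and are all distinct, and they make up part of the 2591 events of any length that had enough reads to be tested.

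The libraries came from NCI-H1975, a human lung adenocarcinoma cell line. One group of 3 libraries was from cells given the empty PCDNA3.1 plasmid (control), and the other group of 3 was from cells given PCDNA3.1-SAM68, a plasmid that makes SAM68. Both groups had 2 µg of plasmid per well with lipofectamine and were taken after 48 h, so that both carry a transfected plasmid. A transfected well holds cells with and without plasmid, and the values are averages over both. The study's methods call the 3 libraries of a group biological replicates and do not say how the cultures were separated. In the main test, p-values rest on the spread between these libraries, drawn toward that of all tested introns. The comparison asks which introns are left in transcripts to another extent when SAM68 is raised.

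An intron is removed by the spliceosome, which recognises a 5′ splice site that nearly always begins with GT, a branch point, and a 3′ splice site that ends with AG behind a run of pyrimidines. A retained intron stays in the polyadenylated transcript, where it can hold the RNA in the nucleus or bring in a stop codon that exposes the RNA to nonsense-mediated decay. SAM68, the product of KHDRBS1, is an RNA-binding protein of the STAR family that binds A/U-rich sites such as UAAA and UUUA and acts on alternative splicing and on polyadenylation within introns. Short introns with many G and C bases are the kind most often left in.

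The measure is PSI, the retained form as a percent of the 2 forms counted for that event. It is no share of all transcripts of the gene, since RNA spliced at other sites in the region can count as the retained form or as neither. The inclusion reads are those that cross either of the 2 exon-intron boundaries, over an effective length of 260 nt, and the skipping reads are those that join the 2 exons, over 130 nt. For all 979 introns these lengths were the same. KHDRBS1 was checked first, by the junction reads of its exon-skipping event with the most reads. They numbered 99.6, 105.1 and 101.4 rpm (reads scaled to 1000000 junction reads of a library) in the control against 395.1, 405.0 and 409.0 rpm with SAM68, 3.95-fold higher on average. The two-sided exact permutation test gave p = 0.1, which 3 against 3 libraries cannot go below. The libraries held 16951876 to 19737729 junction reads in the exon-skipping table, and 582210 to 694650 reads on the 979 introns. The median intron had 102.5 reads per library on average, and the range was 10 to 25330.

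The sequences of 6 introns show the range of the class. They are given in GRCh38 from 5′ to 3′ on the strand of the gene, with the first and last 2 bases and the first stop codon in the reading frame of the canonical transcript in capitals. The introns of RPS2 (chr16:1962271-1962496, - strand, the last intron, number 6) and RPL13A (chr19:49490298-49490474, + strand, intron 3 of 7) had a PSI close to 0. The introns of ACADVL (chr17:7220198-7220463, + strand, intron 2 of 19), QARS (chr3:49103410-49103630, - strand, intron 4 of 23) and AP1G2 (chr14:23565893-23566063, - strand, intron 5 of 21) are among those whose groups did not overlap. The last, within MOGS (chr2:74463220-74463379, - strand), has a PSI near 100% and lies inside an exon of the canonical transcript, so that no stop codon is marked.
RPS2 intron 6: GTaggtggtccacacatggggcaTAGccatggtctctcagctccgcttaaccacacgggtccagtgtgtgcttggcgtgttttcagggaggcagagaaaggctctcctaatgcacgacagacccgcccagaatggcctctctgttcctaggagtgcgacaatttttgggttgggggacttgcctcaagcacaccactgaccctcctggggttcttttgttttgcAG
RPL13A intron 3: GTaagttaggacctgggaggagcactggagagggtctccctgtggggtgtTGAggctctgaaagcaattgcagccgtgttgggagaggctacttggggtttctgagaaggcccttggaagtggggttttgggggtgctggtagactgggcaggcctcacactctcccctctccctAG
ACADVL intron 2: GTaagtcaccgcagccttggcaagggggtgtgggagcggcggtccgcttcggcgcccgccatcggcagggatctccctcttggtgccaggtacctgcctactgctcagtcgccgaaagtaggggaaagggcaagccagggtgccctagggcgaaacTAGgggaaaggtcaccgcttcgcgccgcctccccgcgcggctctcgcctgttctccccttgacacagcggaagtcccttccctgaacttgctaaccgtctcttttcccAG
QARS intron 4: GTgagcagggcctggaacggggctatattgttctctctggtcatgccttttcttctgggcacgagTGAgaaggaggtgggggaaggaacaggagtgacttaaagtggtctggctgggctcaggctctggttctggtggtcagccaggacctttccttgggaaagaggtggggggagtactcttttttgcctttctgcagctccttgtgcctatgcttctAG
AP1G2 intron 5: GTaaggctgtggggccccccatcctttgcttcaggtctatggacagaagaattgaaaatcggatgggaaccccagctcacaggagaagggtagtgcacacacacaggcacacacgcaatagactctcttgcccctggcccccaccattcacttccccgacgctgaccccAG
MOGS within an exon: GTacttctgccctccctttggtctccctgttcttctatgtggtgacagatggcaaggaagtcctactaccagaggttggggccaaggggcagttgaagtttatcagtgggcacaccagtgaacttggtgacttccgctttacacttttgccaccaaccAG
The first stop codon begins at base 24 of the RPS2 intron, at base 51 of the RPL13A intron, at base 157 of the ACADVL intron and at base 66 of the QARS intron. The AP1G2 intron of 171 nt holds no stop codon in the frame.

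In most of the 979 introns the spliced form made up nearly all of the 2 forms counted, and in a smaller set the retained form did. A high PSI does not say that the whole intron stays in the RNA. An annotated exon of the same gene lies inside 79 of the 979, and the spliced form of these leaves that exon out. Of the introns with a boundary inside a canonical exon, described below, 96 have only 1 boundary there, and a longer or shorter intron can be spliced from the other. The mean PSI over the 6 libraries was up to 1% in 446 introns (45.6%), over 1% to 5% in 259, over 5% to 20% in 89, over 20% to 80% in 86 and over 80% in 99 (10.1%). What sets these ends apart in the annotation is whether the intron is one that the canonical transcript removes. In GENCODE 44, 749 of the 979 are introns of the canonical transcript of their gene, and their median PSI was 0.758%. Another 149 have at least 1 of their boundaries inside a canonical exon, so that the canonical transcript itself reads across that boundary, and their median PSI was 85.9%. The other 81 had a median of 30.6%.

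**Figure D1:**
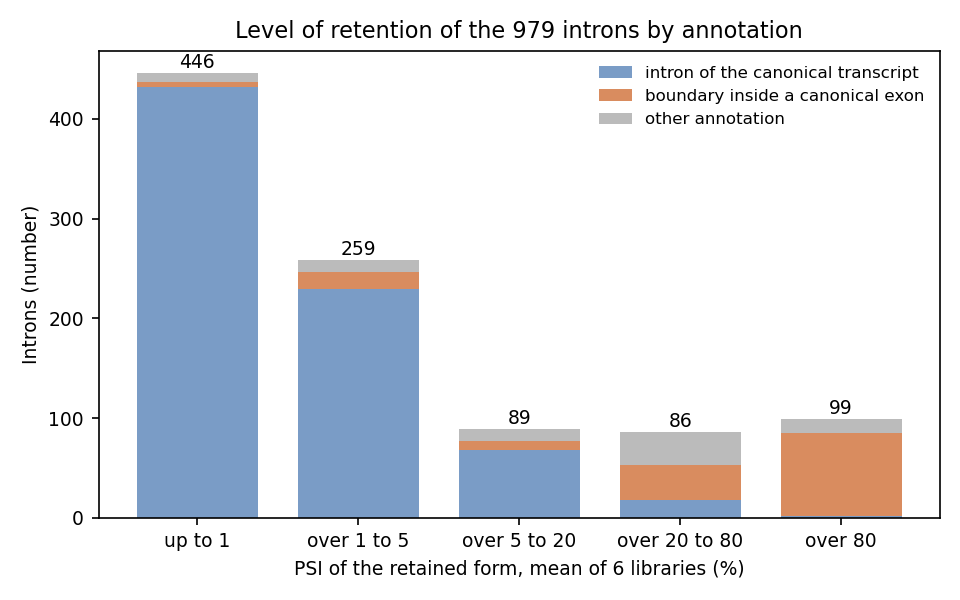
Number of introns (vertical axis) by PSI of the retained form averaged over the 6 libraries (horizontal axis, percent), with bars split by annotation and the total above each bar. Introns of the canonical transcript make up 432 of the 446 introns at up to 1% and 2 of the 99 over 80%, where 83 have a boundary inside a canonical exon.

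The most fully spliced introns belong to ribosomal protein genes and to MCM7. The RPS2 intron printed above, from the gene of a protein of the small ribosomal subunit, had 0, 1 and 0 retained reads in the control against 0, 0 and 1 with SAM68, beside 12401 to 14342 spliced reads. Of the other introns with the lowest PSI at 50 or more reads, those of RPL13 and RPL4 (large ribosomal subunit) had a mean PSI of 0.00410% and 0.00223% in the control and 0.00535% and 0.00805% in the SAM68 libraries. The RPSA intron (small subunit) had 2 retained reads, both in 1 control library, and the intron of MCM7, a subunit of the replicative helicase, had 1, also in a control library. In the libraries without retained reads for these introns, a count of 0 allows up to 3 reads, counting error only.

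At the other end, 83 of the 99 introns over 80% have 1 or both boundaries inside an exon of the canonical transcript, as do the 4 described here. The 257-nt intron of AKT1, the serine/threonine kinase, was at 100% in 5 libraries and 98.97% in 1 SAM68 library. MOGS, the glucosidase that trims N-glycans first, had 2 spliced reads in 1 SAM68 library and none in the other 5, beside 193 to 277 retained reads. UBXN1, a ubiquitin-binding protein, had 2 spliced reads, both in 1 control library. GPAA1, of the complex that attaches GPI anchors, was at 100%, 99.5% and 98.96% in the control and at 100% in all 3 SAM68 libraries. This 393-nt event encloses canonical intron 3 (213 nt), itself a member at a mean PSI of 0.6645%. RNA spliced at intron 3 can count as its retained form. For these 4 introns the groups overlapped, and the adjusted p ran from 0.614 to 0.744.

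The splice sites of 3 introns from the 2 ends are printed to show the letters. The 5′ site is given as the last 3 exon bases and the first 6 intron bases with GT in capitals, and the 3′ site as the last 20 intron bases and the first 3 exon bases with AG in capitals.
RPS2 5′ site: tcgGTaggt
RPS2 3′ site: ggggttcttttgttttgcAGcca
MCM7 5′ site: gaaGTgagt
MCM7 3′ site: tttttgttcttctcctttAGgtg
MOGS 5′ site: cagGTactt
MOGS 3′ site: acacttttgccaccaaccAGtcc
A score was given to each site as the sum of log2 odds of its bases against equal base shares, learned from 185139 introns of canonical transcripts. At the 3′ end the MCM7 site scored 16.2, the RPS2 site 9.77 and the MOGS site 2.17, and at the 5′ end they scored 8.07, 6.12 and 6.32. Single introns do not keep to an order, since at the 3′ end UBXN1, near 100% PSI, scored 11.6 and RPL13, among the lowest, 5.64. Over the class, the median 3′ score was 8.02 in introns at up to 1%, 7.93, 8.41 and 6.74 in the levels between, and 5.81 in those over 80%. The median 5′ score was 7.50 at up to 1%, 6.72, 7.45 and 7.25 in the levels between, and 6.4 over 80%. As ranks over the 979 introns, PSI had a Spearman correlation of -0.11 with the 5′ score, -0.14 with the 3′ score and 0.13 with GC content. With the number of reads it was -0.55, and the reads also enter PSI. Among the 749 introns of the canonical transcript, the correlation was -0.09 with the 5′ score, -0.04 with the 3′ score and 0.18 with GC content. These values describe the introns and were not tested.

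Compared with introns of the same length that are not listed as retained, the 979 had lower median splice site scores, a difference that was not tested. The 5621 such introns of canonical transcripts in genes of the table had a median 5′ score of 8.03 and a 3′ score of 8.58, against 7.23 and 7.88 in the 979 and 7.346 and 7.996 in the 749 of these that are canonical introns, like the 5621. GC content was alike, with medians of 56.8% and 56.6%. Retained introns up to 150 nt had a median of 62.0% and those over 500 nt one of 48.2%. The letters TAAA or TTTA, the DNA form of the SAM68 sites named above, were searched on the transcript strand, with overlaps counted. Of the 979 introns, 560 (57.2%) held at least 1, beside 56.6% of the 5621 other introns. A match is not a binding site.

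The ends were GT and AG in 960 introns, GC and AG in 16 and other bases in 3. The intron itself is annotated in 963, and the retained form in 973, in 818 of these in a transcript of the retained intron type. In the 749 introns of canonical transcripts, 718 interrupt the coding sequence, 15 are in the 5′ UTR, 4 in the 3′ UTR and 12 in noncoding transcripts. Reading on from the coding exon, 656 of the 718 (91.4%) bring a stop codon in the frame. Of the 62 without one, 19 have a length that is a multiple of 3 and would keep the frame. The first intron made up 3.20% and the last 6.28% of the 749, against 4.96% and 8.43% of the 5621 other introns.

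Where 2 of these introns share 1 boundary, their levels usually differed. There were 104 such pairs in 80 genes, 63 with a common 5′ and 41 with a common 3′ boundary, and the 2 introns of a pair share reads at that boundary. RNA spliced at 1 intron of a pair can count as the retained form of the other. The difference of PSI therefore depends on how the forms are counted and does not show that a whole intron was kept. The median difference of PSI within a pair was 60.3 points, and 68 pairs differed by over 20 points. In AKT1 the 257-nt intron shares its 5′ boundary with a 158-nt intron, and the mean PSI was 99.8% for the longer and 0.126% for the shorter. In EIF4A1, an RNA helicase of translation initiation, 3 introns start at the same 5′ boundary. The 248-nt intron had a mean PSI of 0.524%, the 203-nt intron 77.2% and the 310-nt intron 98.4%. These genes were picked after their values were seen.

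GAS5, the noncoding host gene of several snoRNAs, held the most members, 8. The PSI of its members ran from 0.431% (intron 5, 282 nt) to 27.9% (370 nt). The 370-nt event runs from the 5′ boundary of intron 9 to the 3′ boundary of intron 10. Its spliced form leaves out the exon between them, so that 27.9% is not the level of a single intron. Introns 9 and 10 themselves had a mean PSI of 3.72% and 4.01%. In intron 10 (179 nt) the PSI was 3.90%, 4.80% and 4.92% in the control and 2.84%, 3.85% and 3.74% in the SAM68 libraries, which did not overlap (adjusted p = 0.536). In the class as a whole, 37 introns enclose a small RNA gene on the same strand, of which 32 are snoRNAs, 3 miRNAs and 2 snRNAs. A snoRNA is cut from its intron after splicing. The median PSI of the 37 was 0.546%, at a median of 562.5 reads. The intron of RPL7A around SNORD36A, for one, had 0.155% ± 0.0269 in the control and 0.166% ± 0.0205 in the SAM68 libraries (SD, n = 3).

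Of the 749 canonical introns, only 20 had a mean PSI over 20%, and 15 of these had fewer than 50 reads. They include 5 first introns, and 3 of the 20 are in the 5′ UTR. The deepest was HMGA1 intron 1, described below. HMG20B, a chromatin protein, kept its 5′ UTR intron of 297 nt at a PSI of 19.8% ± 2.31 in the control and 21.2% ± 2.16 in the SAM68 libraries (SD, n = 3). CRACR2B, a calcium channel regulator, kept intron 5 (283 nt) at 68.4% ± 9.68 and 66.2% ± 2.85 and intron 7 (191 nt) at 26.2% ± 4.58 and 25.5% ± 2.84, and neither of these introns brings a stop codon in the frame. RPL10A intron 1 (359 nt) was at 60.4%, 51.9% and 36.4% and at 49.6%, 26.9% and 48.2%. The groups overlapped in the introns of HMG20B, CRACR2B and RPL10A, which were named for their level after it was seen. MAGED4 had 2 such introns, but 1 control library had no reads on either, the fit left that library out, and the gene has a near-identical copy, so that its reads may be split.

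In the comparison of SAM68 with control libraries, no intron of the class passed the threshold, an adjusted p under 0.05 from the quasi-binomial test and a difference of at least 10 points. The count was 0 of 979, and over all tested retained introns 1 of 2591 (0.0386%) passed. With the spread left unmoderated, and by limma run on logit values, no member was called either, with 0% of all tested introns called by each. The likelihood ratio test on pooled counts, which ignores the spread between libraries, called 10 members (1.02%, beside 0.965% of all tested introns). Robust moderation, chosen after seeing the data, called 2 members (0.204%, beside 0.116% of all), the 406-nt intron of ACADVL and that of AP1G2. With 1 spread shared by all introns, also chosen after seeing the data, the first of these was called (0.102%, beside 0.0772% of all). At an unadjusted p under 0.05 there were 93 members (9.50%), beside 9.03% of all tested introns. Of these 52 were lower (5.31% of members, beside 5.71% of all tested introns) and 41 were higher (4.19%, beside 3.32% of all). All 3 SAM68 libraries lay on 1 side of all 3 control libraries in 70 members (7.15%, beside 8.26% of all tested introns). Of the 70, 37 were lower (3.78% of members, beside 5.21% of all) and 33 higher (3.37%, beside 3.05% of all). These shares lie near the background and are no result about the members.

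A 95% interval was computed from the moderated spread on the summed reads of each group, so that libraries with more reads weigh more, and it is not an interval of the difference of the mean PSI. It did not hold that difference in 17 members, such as IL17RC (211 nt), named after its values were seen, with 25.6 points and an interval of -8.55 to 7.58. The interval lay within 10 points of 0 in 657 members (67.1%, beside 68.2% of all tested introns) and within 5 points in 520 (53.1%, beside 52.7%), and in 3 of the 657 the mean PSI differed by 10 points or more. Among the 310 members with 200 or more reads, 304 had an interval within 10 points. The median width was 5.47 points. In 53 members the difference itself was at least 10 points (5.41%, beside 5.4% of all tested introns). There 23 were lower (2.35% of members, beside 2.7% of all) and 30 higher (3.06%, beside 2.7% of all). Of these 53, 47 had fewer than 50 reads, their median depth was 19.2 reads, and in 8 the groups did not overlap.

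**Figure D2:**
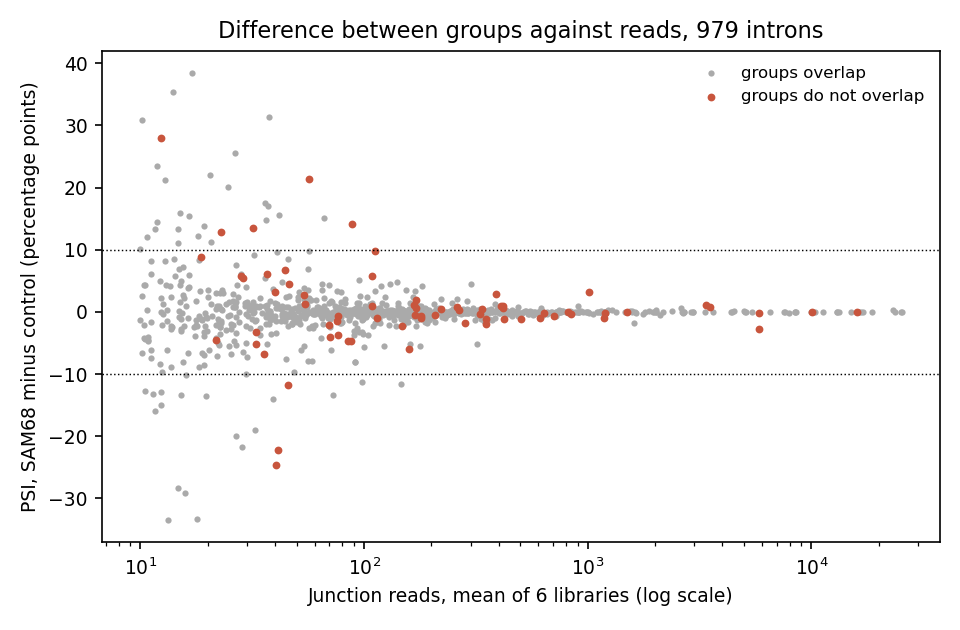
Difference of PSI, SAM68 minus control, in percentage points (vertical axis) against the mean number of junction reads per library (horizontal axis, log scale) for the 979 introns. Red dots are the 70 introns whose groups do not overlap, dotted lines mark 10 points, and the 53 introns at or beyond these lines lie mostly at low read numbers, 47 of them under 50 reads.

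**Figure D3:**
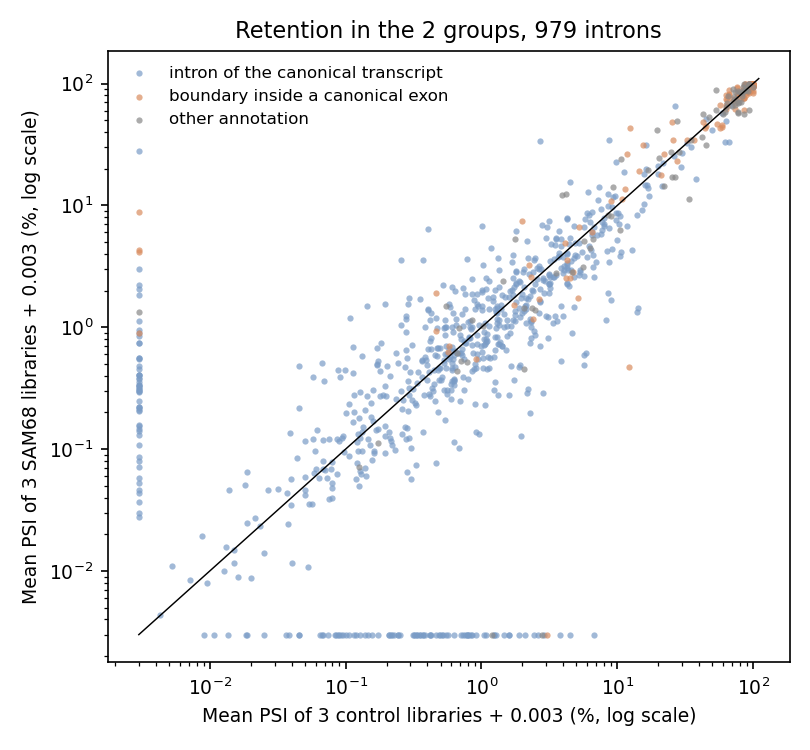
Mean PSI of the 3 SAM68 libraries (vertical axis) against that of the 3 control libraries (horizontal axis), both in percent on log scales with 0.003 added, 1 dot for each of the 979 introns, coloured by annotation, with the line of equal values. The dots follow the line from both ends of the range, with 539 introns below and 439 above it and 1 on it, and the columns at the lowest values are introns without retained reads in 1 group.

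The 10 introns with the smallest p among those whose groups did not overlap, 1 per gene, had lower values in the SAM68 libraries in 5 genes and higher values in 5, and none passed the threshold. The smallest p was that of intron 8 of DBNL (ENSG00000136279.20, 421 nt, chr7:44058481-44058901), a drebrin-like adaptor between actin and endocytosis. Its PSI was 2.00%, 1.31% and 2.60% in the controls, against 0.182%, 0% and 0.192% with SAM68, all below the lowest control. The retained reads were 13, 9 and 13 against 1, 0 and 1, with 225 to 340 spliced reads. The difference was -1.84 points (95% interval on summed reads -1.89 to -1.14, adjusted p = 0.0707). With unmoderated spread the adjusted p was 0.793, and by limma on the logit of PSI it was 0.531. The retained reads alone went from a mean of 0.624 to 0.0365 rpm, which is -1.06 on the scale of log2(rpm + 0.5) (SE 0.265, adjusted p = 0.0632, limma), a scale that understates the change of such low values.

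THADA, a large protein named for thyroid adenomas, was also lower in the SAM68 libraries, at lower depth. Its intron 33 (335 nt, chr2:43291769-43292103) had 1, 7 and 6 retained reads in the control and none with SAM68, with 17 to 44 spliced reads. The PSI was 2.86%, 8.43% and 8.82% against 0% in all 3 (adjusted p = 0.108). A count of 0 here allows up to 3 retained reads in a library.

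HMGA1, a chromatin protein that binds AT-rich DNA, had the most reads of the 10, 5825 per library on average. Its intron 1 (240 nt, chr6:34236964-34237203) lies in the 5′ UTR. The PSI was 29.8%, 28.2% and 31.4% in the control and 25.7%, 27.97% and 27.5% in the SAM68 libraries, so that the highest SAM68 library lay just under the lowest control. The difference was -2.74 points (95% interval -4.01 to -1.47, adjusted p = 0.0879). Its own dispersion was 6.83 and the moderated one 2.31, so that this interval takes in less than the spread between its libraries. The adjusted p was 0.793 with unmoderated spread and 0.958 by limma on the logit of PSI. Of the 5621 canonical introns of this length not listed as retained, the median 5′ score was 8.03, and this intron's 5′ site scored 3.70.

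QARS, glutaminyl-tRNA synthetase, retained the intron printed above at 2.73%, 3.31% and 3.27% in the control and at 1.64%, 0.673% and 1.34% in the SAM68 libraries. The difference was -1.88 points (adjusted p = 0.274), with 311 to 369 spliced reads in each library. Another QARS member of 199 nt, with the same 5′ boundary and 14.7 reads, was at 100%, 72.4% and 82.6% and at 100%, 42.9% and 27.3%, and its groups overlapped.

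ACADVL, the very long-chain acyl-CoA dehydrogenase of mitochondrial fatty acid oxidation, held 3 members. The 406-nt event (chr17:7220198-7220603) begins at the 5′ boundary of intron 2 and ends before exon 4, so that its spliced form leaves out exon 3. Its retained reads were 20, 25 and 14 in the control and 8, 9 and 8 in the SAM68 libraries, and its spliced reads were 18, 24 and 16 against 48, 35 and 23. The PSI was 35.7%, 34.2% and 30.4% against 7.69%, 11.4% and 14.8%, at an adjusted p of 0.0727 (robust moderation 0.0229, limma 0.783). Taken alone, the retained reads were at a mean of 1.04 and 0.469 rpm and the spliced reads at 1.02 and 1.95 rpm. On the scale of log2(rpm + 0.5), which understates changes at these levels, the differences were -0.66 (SE 0.247) and 0.66 (SE 0.238), and neither passed the test (adjusted p = 0.532 and 0.341, limma). Intron 2 itself, printed above, with 708 reads on average, was at 0.913%, 1.35% and 0.441% in the control and 0.327%, 0.214% and 0.153% in the SAM68 libraries, with 11, 19 and 7 retained reads against 5, 3 and 2 (adjusted p = 0.483). Both events count the reads at the common 5′ boundary and are not independent. The third, intron 10 (267 nt, chr17:7222866-7223132), was at 1.33%, 4.16% and 1.5% and at 1.26%, 1.5% and 0.576%, and its groups overlapped. The study selected ACADVL for a check by RT-PCR. It reports that SAM68 favours keeping a stretch of this gene, numbered there as intron 3, exon 4 and intron 4. In the 406-nt event the retained form was lower in the SAM68 libraries, the opposite direction. Whether the 2 stretches are the same is not clear from the numbering.

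The other 5 had higher values in the SAM68 libraries. The AP1G2 intron printed above, in the gene of a subunit of a clathrin adaptor complex, had no retained read in any control and 4, 4 and 6 with SAM68, at 6 to 19 junction reads per library. Its PSI was 0% in all 3 controls and 16.7%, 40.0% and 27.3% in the SAM68 libraries (adjusted p = 0.0879), and exons of another gene overlap it. PRPF4B, a kinase of the spliceosome, had 0, 0 and 0 against 9, 1 and 1 retained reads for a 328-nt intron within a canonical exon, so that 1 library held most of them. SMPD4, a neutral sphingomyelinase, had a PSI of 0.723%, 0.333% and 0.652% against 1.79%, 1.28% and 1.55% for intron 13 (449 nt), at 417 reads (adjusted p = 0.522).

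C19orf66, now named SHFL, an inhibitor of programmed ribosomal frameshifting, was at 69.8%, 78.9% and 50.6% against 100%, 81.0% and 82.6% for a 230-nt intron (adjusted p = 0.522). That intron has a boundary in a canonical exon and an annotated exon inside. In CELSR3, a cadherin receptor, intron 31 (348 nt) had 0, 1 and 0 retained reads against 1, 2 and 13. As in PRPF4B, 1 SAM68 library held most of the retained reads.

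**Figure D4:**
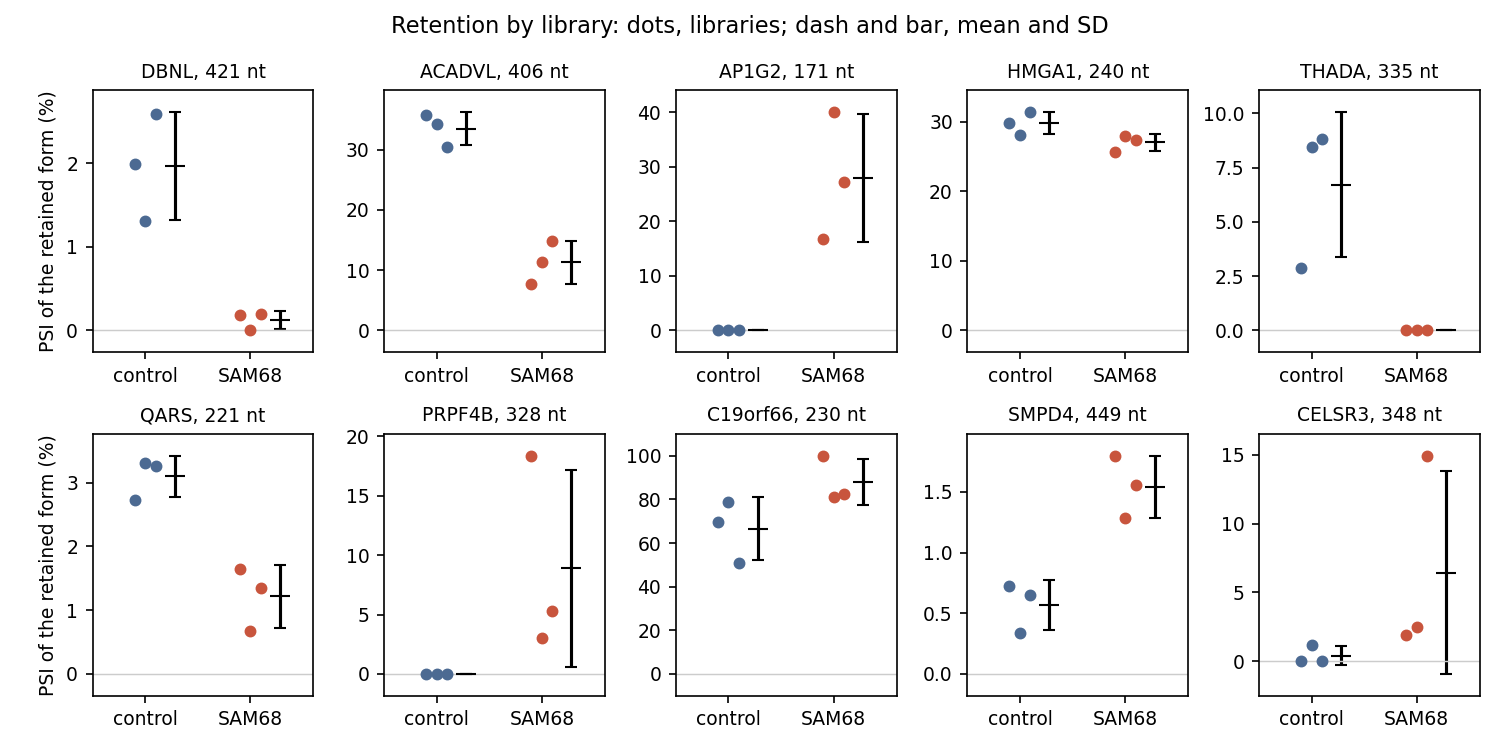
PSI of the retained form in percent (vertical axes, each with its own scale) in the 3 control (blue) and 3 SAM68 (red) libraries for the 10 introns with the smallest p among those whose groups do not overlap, with mean and SD beside the dots. DBNL, ACADVL, HMGA1, THADA and QARS are lower and AP1G2, PRPF4B, C19orf66, SMPD4 and CELSR3 higher in the SAM68 libraries, and in PRPF4B and CELSR3 1 library stands above the other 2.

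RPS20, a small-subunit ribosomal protein gene, had the smallest p of the class but a small difference. Its intron 1 (221 nt) had 45, 18 and 14 retained reads in the control against 159, 339 and 15 with SAM68, beside 20273 to 25367 spliced reads. The PSI was 0.0989%, 0.0355% and 0.0282% against 0.318%, 0.815% and 0.0370%, so that 2 SAM68 libraries were high and the third lay among the controls. The adjusted p was 0.0100 at a difference of 0.336 points. It was the only member with an adjusted p under 0.05 when no size is asked (0.102%, beside 0.0772% of all tested introns). Its own dispersion was 89.2, the highest of the class, and the adjusted p was 0.793 without moderation, 0.859 by limma, and 0.729 to 0.770 when any 1 library was left out. Its difference without SAM68 library 2 was 0.123 points. The intron 2 of the same gene (291 nt) was at 0.0366% ± 0.00986 and 0.0321% ± 0.00714 (SD, n = 3).

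Retained and spliced reads were also compared on their own, in rpm. For retained reads the only member past the adjusted p of 0.05 was this RPS20 intron (1 member, 0.0386% of all tested introns), and that test took its spread from all tested introns rather than from these libraries. For spliced reads it was intron 1 of ACTG1, cytoplasmic gamma actin (1 member, 0.0386% of all). Its spliced reads rose from 495.8 ± 21.3 to 634.4 ± 34.9 rpm (SD, n = 3), by 0.35 on the log2 scale (SE 0.0497, adjusted p = 0.0373, limma). Its PSI was 0.0832% ± 0.0284 and 0.117% ± 0.0773, and the groups overlapped. In bulk RNA, more transcripts per cell and more cells with the transcript cannot be told apart.

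Among introns with other levels of retention, 3 more were named after their values were seen. XPOT, an exporter of tRNA, had a 199-nt intron at 63.8%, 69.5% and 67.2% in the control and 81.6%, 79.4% and 81.8% in the SAM68 libraries (adjusted p = 0.536). SNHG12, a noncoding snoRNA host gene, had a 354-nt intron at 80%, 95.1% and 82.2% against 52.0%, 62.5% and 69.0%, at 40.5 reads (adjusted p = 0.522). MYL6, a myosin light chain, was at 98.3%, 98.5% and 97.95% against 98.8%, 98.9% and 99.4% for a 402-nt intron (adjusted p = 0.536). The groups of these 3 did not overlap.

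By function, the introns of the lists chosen for this tissue gave no called member. Splicing factors held 38 members in 32 genes, of which 5 were lower and 2 higher at an unadjusted p under 0.05 (over all tested introns 5.71% were lower and 3.32% higher, which holds beside each list here), with a median difference of -0.00509 points. Among these, named after their values were seen, RBM6 intron 14 (414 nt) had 3, 3 and 3 retained reads in the control and 1, 0 and 0 in the SAM68 libraries, and a 432-nt intron inside an exon of SF1, the branch point binding protein, had 1, 1 and 1 against 6, 3 and 3. Ribosomal proteins held 34 members in 18 genes, with 2 lower and 3 higher and a median of 0.000658 points, at a median of 7794 reads and a median control PSI of 0.0798%. Translation factors and aminoacyl-tRNA synthetases held 25 members, with 5 lower and 3 higher. In PABPC1, the cytoplasmic poly(A)-binding protein, a 294-nt intron with 1011 reads was at 84.3%, 84.3% and 85.5% against 86.9%, 89.7% and 87.0% (adjusted p = 0.536). The 248-nt intron of EIF4A1 was at 0.708%, 0.510% and 0.607% against 0.497%, 0.442% and 0.378% (adjusted p = 0.536). The PABPC1 and EIF4A1 introns were named after their values were seen. Enzymes of energy metabolism held 13 members in 10 genes. In these, 11 had a lower mean PSI in the SAM68 libraries and 2 a higher one, beside 55.8% of all tested introns that were lower. The 3 at an unadjusted p under 0.05 were the 3 ACADVL introns, 2 of which share reads. The median difference of the list was -0.251 points, beside -0.0469 points over all tested introns. The ubiquitin and proteasome list held 20 members with 2 higher, among them PSMA4, a subunit of the 20S proteasome, at 92.8%, 96.2% and 96.0% against 98.1%, 96.6% and 98.99% (adjusted p = 0.536). DNA repair (8 members) and ZNF genes (9 members) had none at this level. Their smallest p came from MUS81, an endonuclease subunit, with a mean PSI of 66.6% ± 19.9 and 81.7% ± 5.90, and from ZNF3, with 1.16% ± 1.26 and 4.43% ± 2.84 (SD, n = 3). No intron of the 4 genes CCND1, SRSF1, MTOR and ALDH1A3, where SAM68 is known to act on an intron in other cells, was a member.

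The introns with the most reads had retained counts as follows. In RPL13A, with 25330 reads per library, the retained reads of intron 3 were 17, 21 and 8 in the control and 16, 17 and 29 in the SAM68 libraries, and the 95% interval of the difference ran from -0.00363 to 0.0427 points. In PPIA, the prolyl isomerase cyclophilin A, intron 3 (221 nt) had 1 to 5 retained reads beside 16741 to 19802 spliced reads. In RPL13 and RPL7A the intervals were -0.00307 to 0.0174 and -0.0298 to 0.0619 points. The groups overlapped in all 4.

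The median PSI of the class was lower in the SAM68 libraries on average, but the groups overlapped. Over the 979 introns it was 1.02%, 1.05% and 1.18% in the control and 0.812%, 0.885% and 1.05% in the SAM68 libraries. In the introns up to 150 nt the libraries ran from 0.897% to 0.990% and from 0.635% to 0.810%, and in those over 500 nt from 1.10% to 1.21% and from 0.848% to 0.935%, without overlap. Whether the length classes differ in this was not tested. In the 979 introns, those without a single retained read numbered 235 to 247 in the control and 256 to 274 in the SAM68 libraries, with 624286 to 676390 reads on these introns in the control libraries. The SAM68 libraries with medians of 0.812%, 0.885% and 1.05% had 694650, 598186 and 582210 reads, and the part of depth in these values was not tested. The share of retained among all junction reads was 5.91% to 5.99% and 5.84% to 6.13%, which overlapped. The median of the differences was -0.0315 points, beside -0.0469 points over all tested introns. It was -0.00974 points without control library 1 and without control library 3, and -0.00285 points without control library 2. There were 539 members below 0 (55.1%, beside 55.8% of all tested introns) and 439 above (44.8%, beside 44.1% of all).

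**Figure D5:**
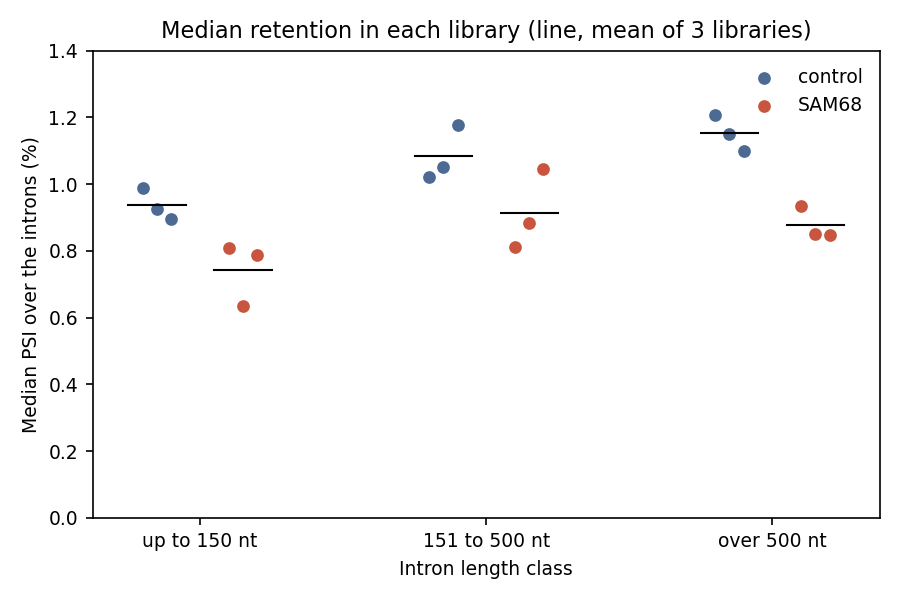
Median PSI over the introns in percent (vertical axis) in each library, for 3 classes of intron length (horizontal axis), with control in blue, SAM68 in red and a line at the mean of 3 libraries. In the class of 151 to 500 nt the highest SAM68 library, at 1.05%, reaches the level of the controls, and in the other 2 classes the groups do not overlap.

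At the limits of the class, the shortest member was ZWINT intron 2 (151 nt, a kinetochore protein gene) with a mean PSI of 0.933% ± 0.401 and 0.542% ± 0.416, and the event next below it in length was in HDGF (150 nt) with 0% and 0.021% ± 0.0363. The longest was EIF4G2 intron 5 (494 nt, a translation initiation factor gene) with 0.0726% ± 0.0908 and 0.0359% ± 0.0621, and the next longer was in NIT2 (502 nt) with 3.16% ± 1.93 and 1.72% ± 0.611 (SD, n = 3). The member with the fewest reads was in ERBB3 (10 reads), and the event with the most reads under the minimum was in GSDMD (9.83 reads). Antisense exons of other genes overlap 48 members, and strand use in the counting is not given in the sources used here, so that reads of the 2 genes cannot be told apart in these.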

How the data were processed

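Total RNA of 3 control and 3 SAM68 libraries was sequenced in pairs. Per the labels and the study's methods, the authors filtered and trimmed reads (fastp 0.20.0; the submitters' notes also name CASAVA 1.4), aligned them with HISAT2 2.1.0 to GRCh38 and counted splice junction reads per event with rMATS. The deposited tables hold, for each event, lists of junction counts of 3 libraries per group and effective lengths. The authors' own columns of inclusion levels, p-values and differences were not used. The lists print no library names: the first was taken as control and the second as SAM68 from the order of the study's comparison, which KHDRBS1 checks. A library's number is its position in the list.

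Here PSI was computed per library from the retained and spliced counts divided by the effective lengths of 260 and 130 nt. Testing was limited to events that averaged 10 or more reads over 6 libraries. A quasi-binomial model was fitted per event with the group as its term, its Pearson dispersion was moderated across events with limma 3.58.1 in R 4.3.3 (prior degrees of freedom 24.85, no value under 1), and the p-values of all 2591 events were adjusted together (Benjamini-Hochberg). Called events had an adjusted p under 0.05 and differed by 10 points or more. Retained and spliced reads were compared alone by limma on log2 of rpm (reads scaled to 1000000 junction reads of a library) with 0.5 added. Single values were compared by an exact two-sided permutation test, which cannot give a p under 0.1 here. The code was tested on simulated data. The alternatives were unmoderated spread, limma on the logit of PSI (0.5 added), a likelihood ratio test on pooled counts, other minimums and limits, no division by length, and leaving out each library. The intervals of differences use the moderated spread between libraries, and the floors (3 counts) cover counting error only.

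Introns were matched by coordinates to GENCODE 44, and sequences were read from GRCh38 with pysam 0.24.0 in Python 3.11.15. Named were the 10 introns with the smallest p among those whose groups did not overlap, the ACADVL introns, the 5 with the lowest and the 5 with the highest PSI at 50 or more reads, the 5 with the most reads, 1 per gene in each case, those at the limits of the class, and the one with the smallest p in each gene list. ACADVL was taken because the study had selected it, by false discovery rate, expression and size of the PSI difference in these same libraries. Its choice therefore used the outcome. QARS, C19orf66 and LRRC75A-AS1 are symbols as the tables give them. The members and lists were chosen with earlier results of these data known. One intron that this rule names is not reported here.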

Additional observations from a re-analysis of the deposited data

How the results depend on the processing

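The count of 0 called introns held with unmoderated spread, limma on the logit of PSI, both other read minimums, limits of 5 and 15 points, no division by length, 1 event per intron and each library left out. It was 10 by the likelihood ratio test on pooled counts, 1 with no limit on the difference (RPS20), and, in settings chosen after seeing the data, 2 with robust moderation (ACADVL, 406 nt, and AP1G2) and 1 with 1 shared spread (ACADVL, 406 nt). The 93 introns at an unadjusted p under 0.05 became 25 with unmoderated spread, 50 by limma, 199 by the likelihood ratio test and 33 to 39 with 1 library left out, where the prior degrees of freedom fell to between 1.23 and 1.52. The 70 introns without overlap became 142 to 161 with 1 library left out, since fewer libraries overlap less often by construction. The median of the mean PSI over introns, 1.26% in the control and 1.15% in the SAM68 libraries, was 0.952% and 0.897% at 20 or more reads, 2.15% and 1.93% with no minimum, 2.48% and 2.23% without division by length, and 62.6% and 58.7% in the 274 introns with a PSI of at least 5%, where the median difference was -0.248 points (chosen after seeing the data). With 1 library left out these medians were 1.13% to 1.26% and 1.06% to 1.15%, and the median difference ran from -0.0381 to -0.00285 points.

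Over the 32 named introns, 280 of 287 values under alternatives with all libraries kept their sign and side of the threshold and 7 passed it, and none changed sign. With 1 library left out, 182 of 192 did not change sign or side, 5 of them at exactly 0, and 10 changed sign. In points these were -0.00241 and -0.000939 for RPL7A (range -0.00241 to 0.0244), 0.0142 for EIF4G2 (from -0.073), -0.000576 (2 libraries) and -0.00128 for RPS2 (to 0.00134), -0.000798 and -0.000817 for RPL13 (to 0.00429), -0.00223 for RPL4 (to 0.00985) and 0.00029 for the 291-nt intron of RPS20 (from -0.00956), with the other end of each range in parentheses. The planned edgeR test was not run. No paired analysis was possible because nothing in the sources used here ties a position in one list to the same position in the other. Where no cause is named, the cause was not tested. The median interval width was 1.98 points in introns with a PSI up to 1%, at a median of 226.4 reads, and 33.95 points in those from 20% to 80%, at 32.5 reads.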
